A study of Mus musculus with 42 samples.

Results

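The core circadian clock genes described here are Per1, Per2, Cry1, Cry2, Arntl, Clock, Npas2, Nr1d1 and Nr1d2. They were chosen by symbol from the deposited table of expected counts, and all 9 of 9 stood among its 11160 genes and passed the filter on low counts. In the mammalian clock, the proteins of Arntl (BMAL1) and Clock, or of its relative Npas2, bind DNA as a pair at E-box elements and switch on the Per and Cry genes, whose proteins then hold that pair back. The nuclear receptors NR1D1 and NR1D2 (REV-ERB alpha and beta) are switched on by the same pair and repress Arntl at sites called ROREs, which closes a second loop. Dexamethasone (Dex), a synthetic glucocorticoid, is widely used to set the clocks of cultured cells to a common phase, and Per1 is a known target of the glucocorticoid receptor.

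The cells were mouse bone marrow-derived macrophages, grown from bone marrow with the growth factor M-CSF, then detached and replated a day before use. They were KO or WT for MS4A4A, a membrane protein of macrophages with several membrane spans. In each genotype, cells were untreated, or were taken after 2, 8 and 24 h of vehicle or of 1 µM Dex, which gives 14 groups of 3 libraries and 42 libraries in all. The sources used here give neither the KO allele nor the strain and age of the mice. They do not say if the 3 libraries of a group came from separate animals or cultures, so p-values measure only the spread between these libraries. These are bulk libraries, in which fewer cells of a type and less RNA per cell cannot be told apart.

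The libraries held 10140200 to 33528400 counts (median 27998700), with the lowest total in replicate 3 of untreated WT cells. All 8 of 8 macrophage markers listed for the check were in the table, at a summed 17936 to 42021 CPM (counts scaled for library size, here by TMM). Of the other lists, 3 of 6 neutrophil, 3 of 4 dendritic cell, 4 of 7 fibroblast and stroma, 1 of 4 B cell and 0 of 4 T cell markers were in the table. Ms4a4a itself was lower in KO than in WT cells without overlap in 6 of the 7 conditions and overlapped after 24 h of vehicle, at 53.5 to 179 CPM in KO and 142 to 213 CPM in WT cells. Its transcript was not lost in KO cells. Mean levels were 46.7 CPM in untreated KO and 89.1 CPM in untreated WT cells. After 24 h of Dex they were 765 CPM in KO and 1587 CPM in WT cells. Replicate 2 of KO cells after 24 h of vehicle lay apart from the other 2 libraries of its group. It was nearer to the Dex libraries for Per1, at 11.3 against a mean of 5.81 CPM in the other 2, and for Arntl, at 18.3 against 12.1 CPM, and farther from them for Per2, at 0.424 against 1.30 CPM. Several of the values at 24 h that it moved are given with and without it.

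Levels of different genes were compared per kilobase of merged exons. In untreated cells of both genotypes (n = 6 libraries), Nr1d2 had the highest level of the 9 genes, at 11.4 ± 1.44 CPM per kb (SD). Cry1 followed at 4.06 ± 0.294 and Clock at 3.24 ± 0.576 CPM per kb, with overlapping libraries. Cry2, Arntl and Npas2 lay together at 1.28 ± 0.183, 1.25 ± 0.124 and 1.22 ± 0.224 CPM per kb, with Nr1d1 at 0.914 ± 0.335 and Per1 at 0.828 ± 0.142 CPM per kb next. Per2 was lowest, at 0.260 ± 0.0852 CPM per kb, with all 6 libraries below those of every other member. After 8 h of Dex the order was another one, with Cry1 highest at 12.6 ± 1.08 CPM per kb, then Nr1d2 at 7.55 ± 0.452 and Per1 at 7.04 ± 0.648 CPM per kb, and Npas2 lowest at 0.503 ± 0.0747 CPM per kb.

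**Figure D1:**
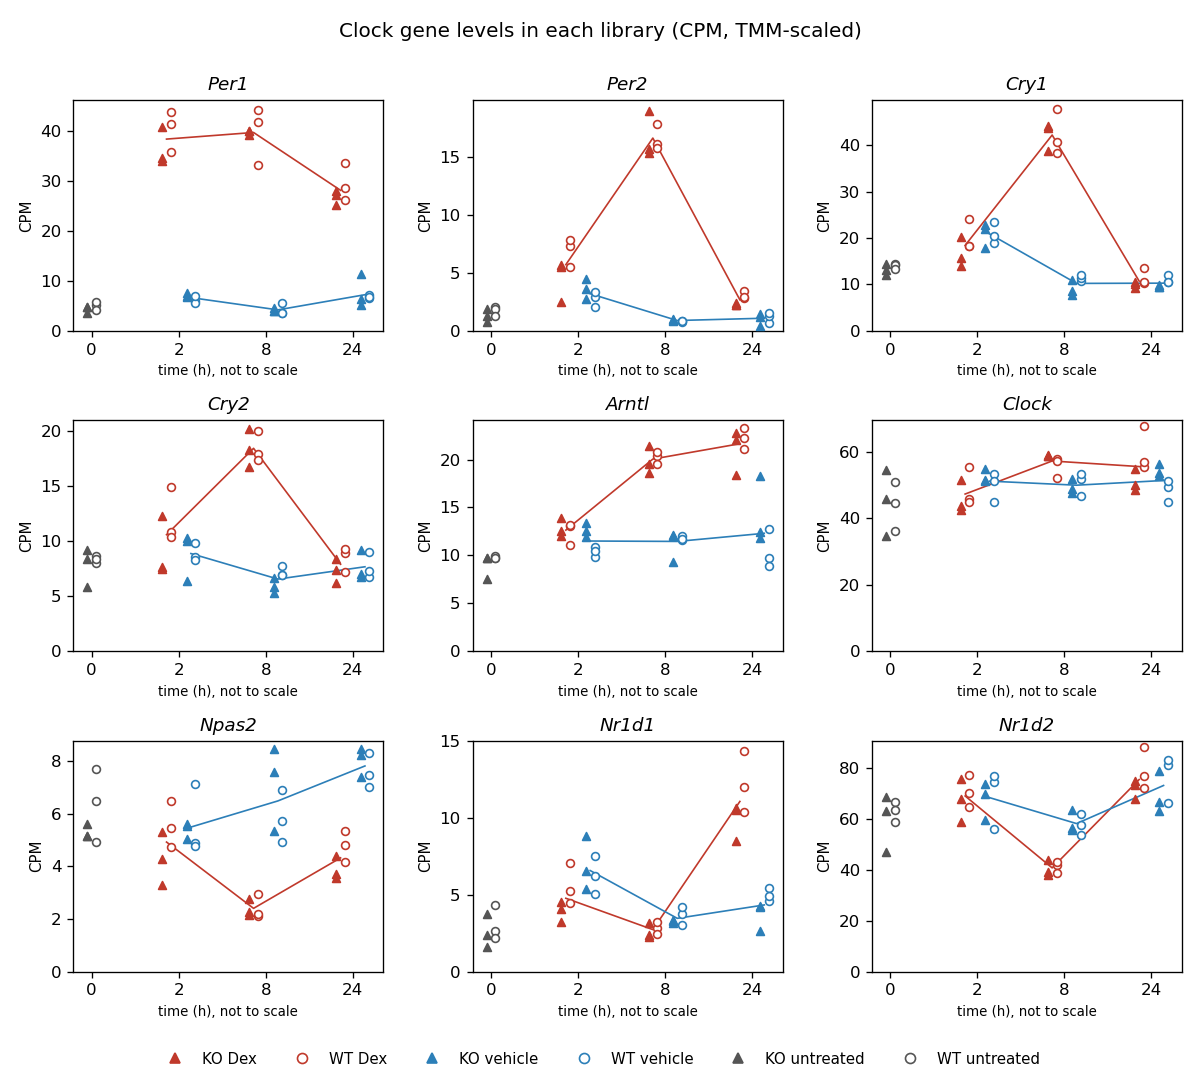
TMM-scaled CPM of the 9 clock genes in each of the 42 libraries, untreated and after 2, 8 and 24 h (time axis not to scale, y axes start at 0). Filled triangles are KO and open circles WT libraries, red is Dex, blue vehicle and grey untreated, and lines join means over both genotypes. Per1 stays high under Dex at all 3 times, Per2, Cry1 and Cry2 peak at 8 h of Dex, Npas2 is lowest there, and Nr1d1 is highest at 24 h of Dex.

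The Period genes, which code for the repressor proteins that accumulate and pair with the cryptochromes, were both higher with Dex at all 3 times in the average of the genotypes, but with different courses. Per1 was already near its highest level at 2 h and stayed there at 8 h. Per2 was a little higher at 2 h, peaked at 8 h, and at 24 h had lost most of that gain. Throughout, log2 fold changes are Dex over vehicle, averaged over KO and WT unless a genotype is named, with their SE, and adjusted p-values come from edgeR's quasi-likelihood test over all 11160 genes.

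Per1 lies on chromosome 11 (69095217 to 69109960, plus strand, GRCm38). After 2 h it stood at 34.6, 33.9 and 40.8 CPM in KO cells with Dex, against 7.57, 6.95 and 6.77 CPM in KO cells with vehicle. In WT cells it stood at 41.2, 35.6 and 43.6 CPM with Dex, against 6.00, 5.63 and 6.92 CPM with vehicle. All 6 Dex libraries lay above all 6 vehicle libraries, and the log2 fold change was 2.53 ± 0.12 (adjusted p = 1.64e-17). At 8 h the Dex libraries ranged over 33.1 to 44.1 CPM and the vehicle libraries over 3.57 to 5.61 CPM, a log2 fold change of 3.24 ± 0.13 (adjusted p = 2.27e-20). The level under Dex was thus almost the same at 8 h as at 2 h, with means of 38.3 ± 4.09 CPM at 2 h and 39.6 ± 3.65 CPM at 8 h (SD, n = 6 each), while the vehicle level was lower at 8 h. At 24 h the Dex libraries were at 25.2 to 33.5 CPM and the vehicle libraries at 5.26 to 11.3 CPM, a log2 fold change of 1.95 ± 0.12 (adjusted p = 4.45e-15). The highest vehicle value belonged to replicate 2 of KO vehicle cells, and without that library the log2 fold change was 2.15.

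Per2 lies on chromosome 1 (91415982 to 91459324, minus strand). After 8 h it stood at 15.8, 15.3 and 19.0 CPM in KO cells with Dex, against 1.03, 0.943 and 0.878 CPM in KO cells with vehicle. WT cells held 17.9, 16.2 and 15.8 CPM with Dex, against 0.757, 0.870 and 0.888 CPM with vehicle. This was the largest of the averaged Dex changes of the 9 genes, 18.6-fold and 4.21 ± 0.22 on the log2 scale (adjusted p = 2.17e-17). The vehicle side of this fold change rests on few counts, 18 to 27 in each library. At 2 h the groups overlapped, at 2.50 to 7.82 CPM with Dex and 2.06 to 4.51 CPM with vehicle, and the log2 fold change was 0.83 ± 0.19 (adjusted p = 0.00177). At 24 h the Dex libraries were at 2.20 to 3.47 CPM and the vehicle libraries at 0.424 to 1.54 CPM, a log2 fold change of 1.32 ± 0.23 (adjusted p = 1.12e-05). Here the lowest vehicle value was again that of KO vehicle replicate 2. Without it the log2 fold change was 1.10 in the average, and in KO cells alone it was 0.79 (adjusted p = 0.0682), against 1.21 (adjusted p = 0.00443) with it.

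The cryptochrome genes, whose proteins are the strongest repressors of the CLOCK and BMAL1 pair, were both higher with Dex at 8 h, and neither passed the test at 2 h or at 24 h. Cry1 lies on chromosome 10 (85131700 to 85185064, minus strand). At 8 h it stood at 38.8, 44.0 and 43.6 CPM in KO cells with Dex, against 7.72, 10.9 and 8.54 CPM in KO cells with vehicle. The values in WT cells were 38.2, 40.7 and 47.7 CPM with Dex, against 10.7, 11.4 and 12.1 CPM with vehicle. The groups were far apart, with a log2 fold change of 2.05 ± 0.10 (adjusted p = 8.12e-19). At 2 h its log2 fold change was -0.19 ± 0.09 (adjusted p = 0.221) and at 24 h 0.06 ± 0.10 (adjusted p = 0.638), and at both times the groups overlapped.

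Cry2, on chromosome 2 (92403646 to 92434043, minus strand), followed a similar course. At 8 h its Dex libraries were at 16.7 to 20.2 CPM (median 18.1) and its vehicle libraries at 5.27 to 7.76 CPM (median 6.76), a log2 fold change of 1.5 ± 0.13 (adjusted p = 1.18e-11). The log2 fold change was 0.24 ± 0.13 at 2 h (adjusted p = 0.281) and 0.04 ± 0.13 at 24 h (adjusted p = 0.817). Cry2 shares 295 exon bases with a transcript on the opposite strand, D930015M05Rik, which is not in the table. The sources used here do not say if reads were counted by strand. Over all genes, 505 were called and more than 2-fold higher after 8 h of Dex, and 54 of these (10.7%) were not called at 24 h, Cry1 and Cry2 among them.

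**Figure D2:**
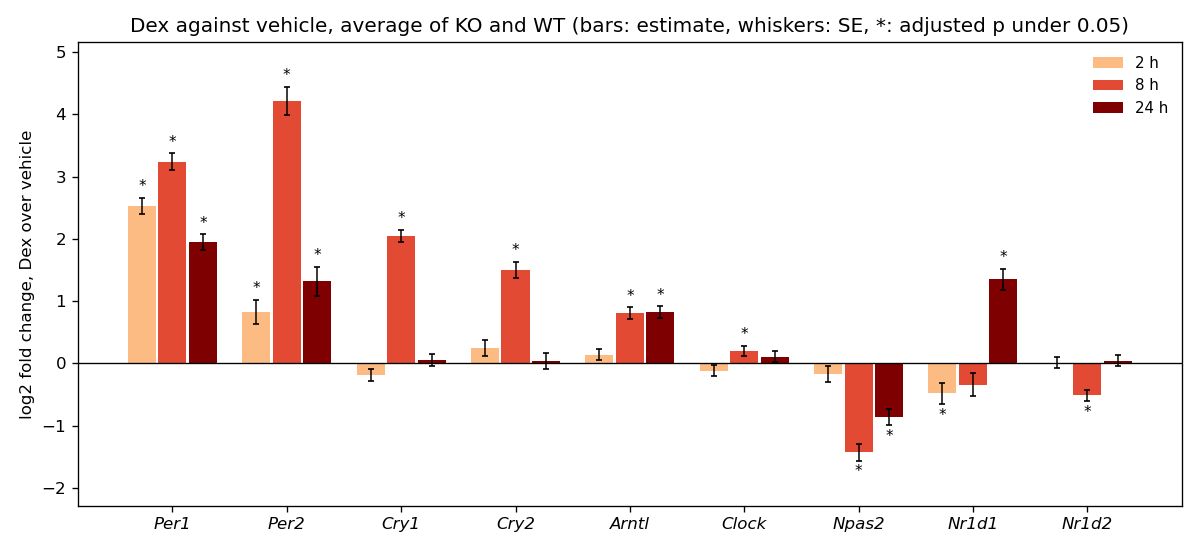
Log2 fold change of Dex over vehicle for the 9 clock genes at 2, 8 and 24 h, averaged over KO and WT. Bars are the fitted values, whiskers their SE, and stars mark an adjusted p below 0.05. At 8 h the bars of Per2, Per1, Cry1 and Cry2 reach 4.21, 3.24, 2.05 and 1.5, and those of Npas2 and Nr1d2 reach -1.42 and -0.51.

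Promoter windows from RefSeq (GRCm38.p6), running from 250 bases before to 50 after a gene's start, were found for 8 of the 9 genes, 12 windows in all, and not for Per2. The 3 shown are those of the genes with the fast, the delayed and the lasting rise under Dex, Per1 (chr11:69098699-69098998, plus strand), Cry1 (chr10:85185005-85185304, minus strand) and Arntl (chr7:113207261-113207560, plus strand). Capitals mark the E-box CACGTG and the RORE core as TAGGTCA or TAGGTTA, each searched on both strands. The Per1 window lies inside the annotated span of the gene, at a RefSeq start site.
Per1 promoter: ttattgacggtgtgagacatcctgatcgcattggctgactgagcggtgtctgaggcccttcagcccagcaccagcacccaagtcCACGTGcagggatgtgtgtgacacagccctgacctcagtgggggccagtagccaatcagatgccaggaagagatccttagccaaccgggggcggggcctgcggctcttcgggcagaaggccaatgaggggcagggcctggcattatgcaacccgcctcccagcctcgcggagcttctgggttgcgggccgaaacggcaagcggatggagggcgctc
Cry1 promoter: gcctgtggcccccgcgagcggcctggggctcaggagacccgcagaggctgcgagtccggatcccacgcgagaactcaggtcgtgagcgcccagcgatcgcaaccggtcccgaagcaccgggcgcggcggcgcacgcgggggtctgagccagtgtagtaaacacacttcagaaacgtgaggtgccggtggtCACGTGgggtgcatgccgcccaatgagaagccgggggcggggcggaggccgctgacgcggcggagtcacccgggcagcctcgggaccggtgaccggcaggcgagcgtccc
Arntl promoter: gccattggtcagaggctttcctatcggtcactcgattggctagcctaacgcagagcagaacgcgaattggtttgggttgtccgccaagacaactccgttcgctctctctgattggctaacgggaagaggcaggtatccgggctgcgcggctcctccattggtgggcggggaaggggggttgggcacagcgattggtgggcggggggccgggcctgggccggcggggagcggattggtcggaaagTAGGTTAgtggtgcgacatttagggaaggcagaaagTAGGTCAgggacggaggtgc
The E-box begins at position -166 in Per1 and -60 in Cry1, counted from 0 at the start site, and 7.15% of 32841 mouse promoter windows of this length hold it. It stands in none of the other 10 windows. In the Arntl window TAGGTTA begins at position -6 and TAGGTCA at 30. These letters are held by 1.44% and 2.61% of all windows. TAGGTTA stands also in the other Arntl window, which overlaps the one shown, and TAGGTCA in no other of the 12. The core letters of the glucocorticoid receptor motif, TGTTCT, are held by 19% of all windows and by none of the 12. The motifs do not overlap each other in these windows. A match is a description of the letters and not a measured site, and no match says only that the letters are not in these windows.

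The activator genes went separate ways with Dex. Arntl, which codes for BMAL1, was higher at 8 and 24 h, Npas2 was lower at both times, and Clock hardly differed. Arntl lies on chromosome 7 (113207465 to 113314126, plus strand). At 24 h it stood at 22.1, 22.8 and 18.4 CPM in KO cells with Dex, against 12.4, 18.3 and 11.8 CPM in KO cells with vehicle. Its values in WT cells were 23.3, 21.1 and 22.3 CPM with Dex, against 12.7, 9.72 and 8.86 CPM with vehicle. The lowest Dex value and the highest vehicle value nearly met, both in KO cells, where the vehicle value of 18.3 CPM was that of replicate 2. The log2 fold change at 24 h was 0.82 ± 0.09 (adjusted p = 2.73e-09), and 0.93 without that library.

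At 8 h Arntl stood at 18.6 to 21.4 CPM with Dex and 9.28 to 12.1 CPM with vehicle, a log2 fold change of 0.81 ± 0.09 (adjusted p = 4.34e-09), close to the value at 24 h. At 2 h it was 0.14 ± 0.09 (adjusted p = 0.433). Arntl shares 33 exon bases with the antisense transcript Gm45355, which is not in the table.

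Npas2, on chromosome 1 (39193731 to 39363236, plus strand), codes for a partner of BMAL1 that can stand in for CLOCK. At 8 h it stood at 2.27, 2.17 and 2.76 CPM in KO cells with Dex, against 5.35, 8.45 and 7.61 CPM in KO cells with vehicle. WT cells had 2.96, 2.10 and 2.20 CPM with Dex, against 5.71, 4.95 and 6.89 CPM with vehicle. Every Dex value was below every vehicle value, and the log2 fold change was -1.42 ± 0.14 (adjusted p = 9.97e-11). At 24 h it was -0.86 ± 0.13 (adjusted p = 1.17e-06), with 3.54 to 5.34 CPM under Dex and 7.03 to 8.46 CPM under vehicle. At 2 h it was -0.17 ± 0.13 (adjusted p = 0.546).

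Clock, on chromosome 5 (76209868 to 76304792, minus strand), codes for the usual partner of BMAL1. Its group means stayed between 43.9 CPM in untreated WT cells and 60.1 CPM in WT cells after 24 h of Dex. At 8 h it stood at 52.0 to 58.9 CPM with Dex and 46.7 to 53.4 CPM with vehicle, overlapping, with a log2 fold change of 0.20 ± 0.08 (adjusted p = 0.0434). That call rests on the fit. It was lost with DESeq2 (adjusted p = 0.0604), with median-ratio scaling (adjusted p = 0.0672) and with genes of at least 5 CPM (adjusted p = 0.0532). It held in only 3 of the 12 fits that left out a library, with log2 fold changes of 0.16 to 0.22 over the 12 fits. Those 3 were the fits without KO vehicle replicate 3, WT vehicle replicate 3 or WT Dex replicate 1. At 2 h the log2 fold change was -0.11 ± 0.08 (adjusted p = 0.491) and at 24 h 0.11 ± 0.08 (adjusted p = 0.262).

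The genes of the nuclear receptor loop, both of them repressors of Arntl, also differed from each other. Nr1d1 was higher with Dex at 24 h, and Nr1d2 was lower with Dex at 8 h. Nr1d1 lies on chromosome 11 (98767932 to 98775333, minus strand). At 24 h it stood at 10.6, 8.51 and 10.5 CPM in KO cells with Dex, against 2.62, 4.21 and 4.26 CPM in KO cells with vehicle. The WT values were 12.0, 10.4 and 14.4 CPM with Dex, against 4.58, 5.43 and 4.93 CPM with vehicle. The groups were apart, and the log2 fold change was 1.35 ± 0.17 (adjusted p = 2.76e-08).

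At 8 h Nr1d1 stood at 2.26 to 3.25 CPM with Dex and 3.02 to 4.21 CPM with vehicle, overlapping, with a log2 fold change of -0.34 ± 0.18 (adjusted p = 0.116). Fitted on the compared libraries alone it was -0.35 and passed the test (adjusted p = 0.0358). At 2 h it stood at 3.24 to 7.06 CPM with Dex and 5.02 to 8.80 CPM with vehicle, with a log2 fold change of -0.48 ± 0.17 (adjusted p = 0.0497). The call at 2 h was lost when only the compared libraries were fitted (adjusted p = 0.0708). It held in 4 of the 12 fits that left out a library, those without KO vehicle replicate 1, KO Dex replicate 3, WT vehicle replicate 1 or WT Dex replicate 3, with log2 fold changes of -0.58 to -0.37 over the 12 fits.

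Nr1d1 overlaps Thra, a thyroid hormone receptor gene on the opposite strand, over 263 exon bases, so counts of the pair cannot be told apart there if the counting ignored strand. With Dex, Thra had log2 fold changes of -0.23 ± 0.11 at 2 h (adjusted p = 0.172), 0.79 ± 0.11 at 8 h (adjusted p = 1.02e-07) and 0.73 ± 0.10 at 24 h (adjusted p = 3.52e-07). Thra was thus higher with Dex at 8 h, when Nr1d1 was not, and both were higher at 24 h. Both were higher after 2 h of vehicle than in untreated cells, Thra at 0.36 ± 0.11 (adjusted p = 0.0226). So they were after 24 h of vehicle, Thra at 0.39 ± 0.11 (adjusted p = 0.00663). The call of Nr1d1 there was lost when the compared libraries were fitted alone (adjusted p = 0.0753). Both were lower at 8 h than at 2 h of vehicle, Thra at -0.29 ± 0.11 (adjusted p = 0.045). From 8 to 24 h of vehicle Thra was called, at 0.32 ± 0.11 (adjusted p = 0.0374), and Nr1d1 was not. The part of shared counts was not tested.

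Nr1d2, on chromosome 14 (18204054 to 18239127, minus strand), stood at 39.2, 43.8 and 38.0 CPM after 8 h in KO cells with Dex, against 56.6, 55.6 and 63.8 CPM in KO cells with vehicle. In the WT libraries Nr1d2 was at 42.2, 43.0 and 39.0 CPM with Dex, against 53.6, 57.9 and 62.2 CPM with vehicle. All 6 Dex values were below all 6 vehicle values, and the log2 fold change was -0.51 ± 0.09 (adjusted p = 9.75e-06). At 2 h the log2 fold change was 0.01 ± 0.09 (adjusted p = 0.968) and at 24 h 0.05 ± 0.09 (adjusted p = 0.686). The lower level was thus seen at the time when Per2, Cry1 and Cry2 were at their highest.

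Counted over the 9 genes, 2 rose and 1 fell with Dex at 2 h, where 14.5% of all 11160 genes were called, 8.14% as higher and 6.41% as lower. At 8 h 6 rose and 2 fell, where 52.2% of all genes were called, 27.5% as higher and 24.7% as lower. At 24 h 4 rose and 1 fell, where 53.6% were called, 26.8% as higher and 26.8% as lower. The median log2 fold change of the 9 genes was 0.01 at 2 h, 0.81 at 8 h and 0.11 at 24 h, against medians over all genes of 0.00 at 2 h, 0.01 at 8 h and 0.01 at 24 h. At 24 h the members' share was close to that of all genes. Summed fibroblast and stroma markers were at 16.7 to 37.1 CPM in KO and 8.98 to 41.8 CPM in WT cells after 24 h of Dex, against 5.85 to 13.5 CPM in KO and 4.95 to 13.98 CPM in WT cells after 24 h of vehicle, without overlap in KO cells only. Summed dendritic cell markers (3 of 4 in the table) were at 5.80 to 6.26 CPM in KO and 4.62 to 6.26 CPM in WT cells after 8 h of Dex, against 0.943 to 2.20 CPM in KO and 1.20 to 1.957 CPM in WT cells after 8 h of vehicle. At 24 h they were at 2.17 to 3.02 CPM in KO and 2.84 to 3.94 CPM in WT cells with Dex, against 0.742 to 1.85 CPM in KO and 1.05 to 1.69 CPM in WT cells with vehicle. The B cell marker in the table, Cd79b, was at 0.482 to 0.771 CPM in KO and 0.584 to 0.756 CPM in WT cells after 24 h of Dex, against 1.59 to 2.00 CPM in KO and 1.60 to 2.13 CPM in WT cells after 24 h of vehicle. The part of these markers' cells in the clock gene values was not tested.

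The test of the change in the Dex effect between times separated the courses. From 2 to 8 h the effect of Dex rose for 6 of the 9 genes and fell for 2, where 31% of all genes were called, 16.9% upwards and 14.1% downwards. The gains were 3.39 ± 0.29 for Per2, 2.24 ± 0.13 for Cry1, 1.26 ± 0.18 for Cry2, 0.71 ± 0.18 for Per1, 0.67 ± 0.13 for Arntl and 0.31 ± 0.12 for Clock on the log2 scale, and the losses -1.26 ± 0.19 for Npas2 and -0.53 ± 0.12 for Nr1d2. Cry1 had rank 4 of 11160 genes by p in this test (adjusted p = 2.1e-14). The gain of Clock held in 7 of 24 fits that left out a library, those without replicate 3 of KO vehicle 2 h, KO Dex 2 h, KO vehicle 8 h, WT Dex 2 h or WT vehicle 8 h, or replicate 1 of WT vehicle 2 h or WT Dex 8 h, with values of 0.26 to 0.36. The call of this gain was lost with median-ratio scaling, at 0.29 (adjusted p = 0.0535).

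Between 8 and 24 h the effect of Dex fell for 4 of the 9 genes and rose for 3, where 25.9% of all genes were called, 9.92% upwards and 16% downwards. It fell by 2.89 ± 0.33 for Per2, by 1.99 ± 0.14 for Cry1, by 1.46 ± 0.19 for Cry2 and by 1.29 ± 0.18 for Per1 on the log2 scale, which are the 4 genes of the repressor arm. It rose by 1.69 ± 0.25 for Nr1d1, by 0.56 ± 0.19 for Npas2 and by 0.56 ± 0.12 for Nr1d2, and for the last 2 this was a move back towards the vehicle level. Without KO vehicle 24 h replicate 2 the change was -1.08 for Per1, -3.10 for Per2 and 1.75 for Nr1d1. Cry1 had rank 9 of 11160 genes by p (adjusted p = 6.66e-13). The change of Npas2 (adjusted p = 0.0259) did not pass without KO vehicle 8 h replicate 2 or without WT vehicle 8 h replicate 3, at adjusted p of up to 0.0616 and log2 values of 0.49 and above. For Arntl the effect at 24 h differed from that at 8 h by 0.02 ± 0.13 (adjusted p = 0.95).

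The clock genes also moved in cells that had no Dex. Untreated cells were taken at baseline only, so vehicle and elapsed time cannot be told apart in the comparisons with them. After 2 h of vehicle, 5 of the 9 genes were higher than in untreated cells, and none was lower, where 13.8% of all genes were called, 7.03% as higher and 6.72% as lower. Nr1d1 stood at 5.02 to 8.80 CPM after 2 h of vehicle and 1.61 to 4.35 CPM in untreated cells, without overlap, a log2 fold change of 1.20 ± 0.18 (adjusted p = 9.52e-06). Cry1 stood at 17.8 to 23.5 CPM after 2 h of vehicle and 12.0 to 14.5 CPM in untreated cells, also without overlap, at 0.62 ± 0.09 (adjusted p = 1.45e-05). Per2 was higher by 1.05 ± 0.22 (adjusted p = 0.000882), Per1 by 0.49 ± 0.14 (adjusted p = 0.0134) and Arntl by 0.29 ± 0.10 (adjusted p = 0.0418), each with overlapping groups. The call of Arntl held in 4 of 12 fits that left out a library, those without KO untreated replicate 1 or 2, KO vehicle replicate 1 or WT vehicle replicate 1, at 0.22 to 0.32 over the 12 fits.

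After 8 h of vehicle, 1 gene was higher and 2 lower than in untreated cells, where 18.2% of all genes were called, 8.49% as higher and 9.66% as lower. Cry1 was lower, at -0.42 ± 0.10 (adjusted p = 0.00196), Per2 lower, at -0.78 ± 0.25 (adjusted p = 0.0263), and Arntl higher, at 0.29 ± 0.10 (adjusted p = 0.0351). The call of Per2 was lost without KO untreated replicate 3, KO vehicle replicate 3, WT untreated replicate 1 or 2, or WT vehicle replicate 1 (-0.91 to -0.59 over 12 fits). The call of Arntl held only without KO untreated replicate 1 or 2, KO vehicle replicate 2 or WT vehicle replicate 1 (0.24 to 0.34 over 12 fits). The count over the 9 genes was 1 without KO vehicle replicate 3, WT untreated replicate 1 or WT untreated replicate 2.

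After 24 h of vehicle, 5 genes were higher and 1 lower than in untreated cells, where 31% of all genes were called, 15.6% as higher and 15.4% as lower. Per1 was higher by 0.62 ± 0.14, Nr1d1 by 0.59 ± 0.18, Npas2 by 0.41 ± 0.13, Arntl by 0.38 ± 0.10 and Nr1d2 by 0.25 ± 0.09 on the log2 scale, and Cry1 was at -0.41 ± 0.10, with adjusted p between 0.000629 and 0.028. When the compared libraries were fitted alone, 3 of these 6 calls were left. The calls lost were those of Arntl (adjusted p = 0.0573), Nr1d1 (adjusted p = 0.0753) and Nr1d2 (adjusted p = 0.093). Nr1d2 missed the threshold without KO untreated replicate 1, KO vehicle replicate 3, WT untreated replicate 3 or WT vehicle replicate 2 or 3 (0.18 to 0.31 over 12 fits), and without KO vehicle replicate 2 Per1 was higher by 0.42 and Arntl by 0.27. The 3 comparisons with untreated cells share those 6 libraries.

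**Figure D3:**
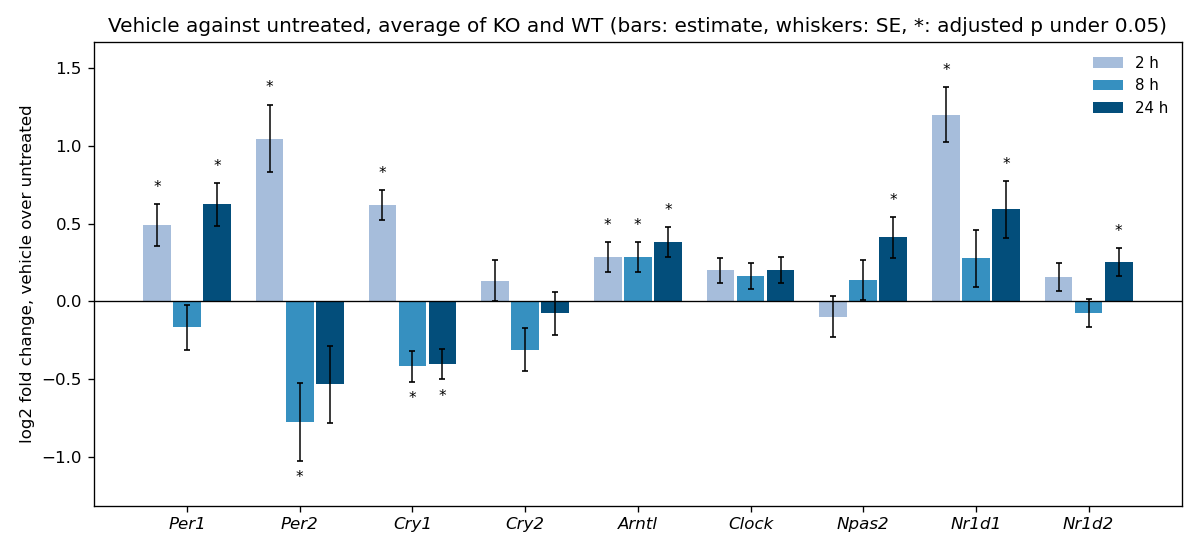
Log2 fold change of vehicle over untreated cells for the 9 clock genes at 2, 8 and 24 h, averaged over KO and WT. Bars are the fitted values, whiskers their SE, and stars mark an adjusted p below 0.05. Nr1d1 and Per2 are highest at 2 h, at 1.20 and 1.05, and Per2 is at -0.78 at 8 h.

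Set against each other, the vehicle groups showed lower levels at 8 h than at 2 h for 5 of the 9 genes and higher levels for none, where 23.7% of all genes were called, 11.1% as higher and 12.6% as lower. Per2 was at 0.757 to 1.03 CPM at 8 h and 2.06 to 4.51 CPM at 2 h, a log2 fold change of -1.82 ± 0.23 (adjusted p = 3.97e-07). Cry1 was at -1.04 ± 0.09, Nr1d1 at -0.92 ± 0.17, Per1 at -0.66 ± 0.14 and Cry2 at -0.44 ± 0.13 on the log2 scale. Nr1d2 was at -0.23 ± 0.09 (adjusted p = 0.0518), and passed with the replicate number as a block (adjusted p = 0.0139). Between 8 and 24 h of vehicle 2 genes rose and none fell, where 17.1% of all genes were called, 9.08% as higher and 8.03% as lower. Per1 rose by 0.79 ± 0.14 (0.58 without KO vehicle 24 h replicate 2) and Nr1d2 by 0.33 ± 0.09. For Per2 and Cry1, the larger Dex effect at 8 h than at 2 h thus went with a higher level under Dex and a lower level under vehicle.

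KO and WT cells were compared over the conditions without Dex, over those with Dex, and for the size of the Dex effect. Without Dex, 0 of the 9 genes differed, where 0.224% of all genes were called. Log2 differences of KO minus WT ranged from -0.18 for Nr1d1 to 0.13 for Arntl, and 1 of the 9, Cry1 at -0.16 ± 0.07, had an unadjusted p below 0.05 (adjusted p = 0.504). Over all 11160 genes, 933 had such an unadjusted p. With Dex, 0 of 9 differed, where 0.0538% of all genes were called. Of the 9 genes 3 had an unadjusted p below 0.05, as had 852 of all 11160 genes. The differences with Dex were all 9 below 0 and ranged from -0.33 for Per2 to -0.02 for Arntl, with 95% intervals between -0.64 and 0.12. The median over all genes was -0.004. DESeq2 called 0 of the 9 in either comparison.

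The Dex effect differed between KO and WT for 0 of the 9 genes at each of the 3 times, and for 0% of all 11160 genes, by edgeR and by DESeq2, with 986 genes at 2 h, 133 at 8 h and 564 at 24 h at an unadjusted p below 0.05. Of the 9 clock genes 1 at 2 h, 0 at 8 h and 2 at 24 h had such an unadjusted p. At 2 h all 9 differences were below 0, where the median over all genes was -0.002. The difference of Per2 was the widest, at -0.95 ± 0.39 on the log2 scale (adjusted p = 0.544). Per2 stood at 2.50, 5.51 and 5.71 CPM in KO cells with Dex and 2.71, 4.51 and 3.65 CPM in KO cells with vehicle. In WT cells it stood at 5.50, 7.31 and 7.82 CPM with Dex and 2.06, 2.94 and 3.39 CPM with vehicle. Within the genotypes 2 of the 9 genes passed at 2 h in each, where 10.4% of all genes were called in KO and 9.02% in WT cells. For Per2 the WT groups did not overlap and the KO groups did, with log2 fold changes of 0.35 ± 0.27 in KO (adjusted p = 0.527) and 1.30 ± 0.27 in WT cells (adjusted p = 0.000938). Nr1d1 passed at 2 h in KO cells, at -0.80 ± 0.24 (adjusted p = 0.0255), and was at -0.17 ± 0.24 in WT cells (adjusted p = 0.746). The call in KO cells was lost without KO vehicle replicate 2 or KO Dex replicate 1 or 2 (-0.94 to -0.58 over 6 fits), and the test of the difference between genotypes gave -0.63 ± 0.34 (adjusted p = 0.545).

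At 8 h the courses of the genotypes lay closer, with differences of -0.30 to 0.32 and 95% intervals between -1.05 and 0.80. Per1, Per2, Cry1, Cry2, Arntl, Npas2 and Nr1d2 passed in both genotypes, 7 of 9 genes in each, where 38.5% of all genes were called in KO and 37% in WT cells. At 24 h Arntl had a log2 fold change of 0.57 ± 0.13 in KO and 1.08 ± 0.13 in WT cells, a difference of -0.52 ± 0.18 (adjusted p = 0.89). Without KO vehicle 24 h replicate 2 the KO value was 0.79 and that difference -0.28. The difference for Per1 was then 0.10, against -0.32 with that library. For Per2 the difference widened to -0.63 (adjusted p = 0.972), against -0.22 with it (adjusted p = 0.947). At 24 h 5 of the 9 genes passed in KO cells, where 38.3% of all genes were called, and 6 of 9 in WT cells, where 41.7% were called. The added gene was Clock, at -0.09 ± 0.12 in KO (adjusted p = 0.593) and 0.31 ± 0.12 in WT cells (adjusted p = 0.032), a difference of -0.39 ± 0.16 (adjusted p = 0.89). The call of Clock in WT cells was lost without WT vehicle replicate 1 or 2 or WT Dex replicate 3 (0.21 to 0.35 over 6 fits), and that of Per2 in KO cells without KO vehicle replicate 2 (0.79, adjusted p = 0.0682). In simulated counts of these libraries at 8 h, the test of the difference recovered 31.3% of genes changed by 0.5 on the log2 scale, 86.6% of those changed by 1 and 98.5% of those changed by 2. The 200 changed genes were drawn from all 11160 genes, and 7.69% of the calls were false. Apart from the planted change, each simulated gene had the same mean level in all groups. In the real libraries 52.2% of all genes were called with Dex at 8 h, and the share of genes with a true difference is not known. The recovered shares therefore need not hold for the real test. The SE of this difference was 0.163 to 0.445 over the 9 clock genes, against a median of 0.166 over all genes. Recovery for the clock genes themselves was not measured.

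**Figure D4:**
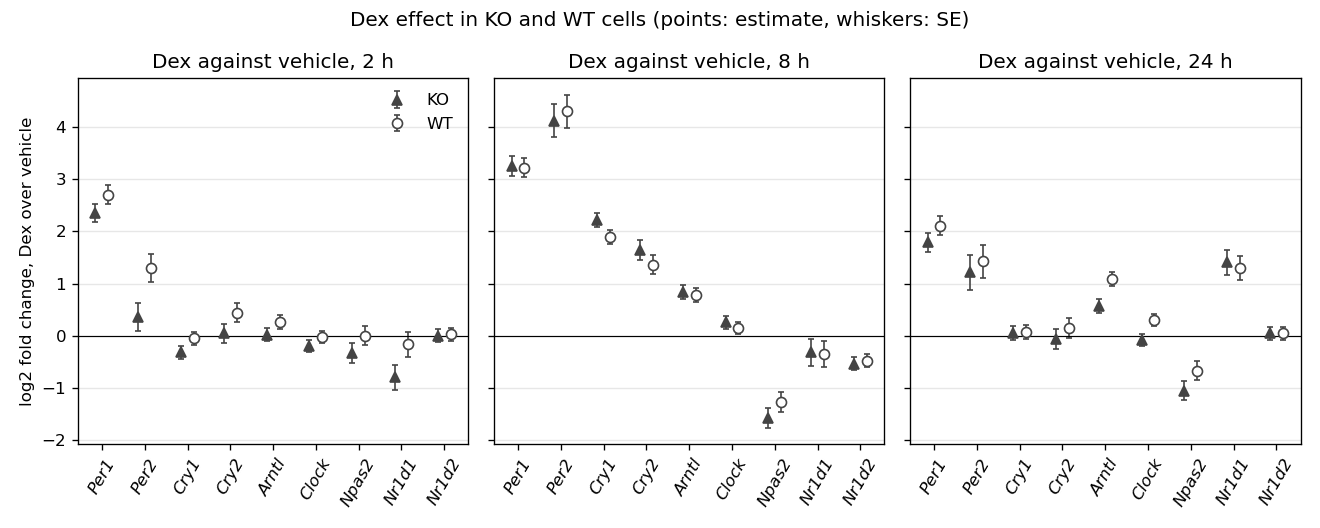
Log2 fold change of Dex over vehicle in KO (triangles, left) and WT cells (circles, right) for the 9 clock genes, in a panel for each of 2, 8 and 24 h, with SE. At 8 h the pairs lie close together, and at 2 h Per2 is at 0.35 in KO and 1.30 in WT cells.

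Other genes tied to the clock were counted from lists by role, beside the 14.5%, 52.2% and 53.6% of all genes called at 2, 8 and 24 h. The lists are of symbols, and a gene can stand there under an old and a new symbol. Of 13 symbols of other clock transcription factors 9 were in the table. Of these 9, 2 rose and 2 fell with Dex at 2 h, 6 rose and 2 fell at 8 h, and 3 rose and 4 fell at 24 h. The median log2 fold change of the 9 was 0.02 at 2 h, 0.58 at 8 h and -0.12 at 24 h. Nfil3, a repressor at D-box elements, rose by 2.02 ± 0.11, 2.54 ± 0.11 and 1.63 ± 0.11 on the log2 scale at 2, 8 and 24 h. Ciart, a repressor of the CLOCK and BMAL1 pair, rose by 2.08 ± 0.18, 2.41 ± 0.19 and 1.45 ± 0.20 at those times. Bhlhe41, which binds E-boxes as a repressor, was at -0.97 ± 0.12, -1.16 ± 0.12 and -0.56 ± 0.12. Tef, an activator at D-box elements, rose by 1.16 ± 0.08 at 8 h, and was at -0.33 ± 0.08 at 24 h.

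Of 17 kinases, phosphatases and ubiquitin ligases that act on clock proteins 16 were measured, of which 3 rose and 2 fell at 2 h, 4 rose and 2 fell at 8 h, and 3 rose and 3 fell at 24 h. With 6 of 16 called at 8 h and at 24 h, this list lay below the share of all genes at both times. Usp2, a deubiquitinase, rose by 1.35 ± 0.24 at 2 h, and Ppp5c, a phosphatase, by 0.66 ± 0.05 at 8 h. Prkaa2, a catalytic subunit of AMPK, fell by 1.44 ± 0.25 at 8 h, and Prkaa1, the other such subunit, rose by 0.58 ± 0.05. Their levels were far apart. Prkaa2 was near the floor, at means of 1.02 (KO) and 0.85 CPM (WT) with vehicle and 0.355 (KO) and 0.318 CPM (WT) with Dex. Prkaa1 was at a mean of 116 CPM in each genotype with vehicle, and at 177 (KO) and 170 CPM (WT) with Dex. Of 14 symbols of coregulators and linked factors 13 were in the table, of which 1 rose and 1 fell at 2 h, 4 rose and 4 fell at 8 h, and 4 rose and 4 fell at 24 h. The 8 of 13 called at 8 h and at 24 h were near the share of all genes. Nampt, an enzyme of NAD synthesis, rose by 0.35 ± 0.06 at 2 h, 0.52 ± 0.06 at 8 h and 0.69 ± 0.06 at 24 h. Nr3c1, the gene of the glucocorticoid receptor, was at -0.28 ± 0.06, -0.39 ± 0.06 and -0.34 ± 0.06. Timeless, which acts in DNA replication, fell by 2.06 ± 0.16 at 24 h. The medians of the last 2 lists lay within 0.05 of 0 at each time, near the median of all genes.

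Likeness of pattern was measured as Pearson's r between mean log2 CPM over the 14 groups, among 3097 genes whose group means span more than 1 on the log2 scale. It is a description, since the groups share treatments. Cry1 and Cry2 had an r of 0.94 with each other, and Per2 stood near both, at 0.908 with Cry1 and 0.932 with Cry2. The gene most like Cry2 was Btla, at 0.959, and the gene most like Per2 was Uck2, at 0.957. Per1 was most like Sik1, at 0.989, followed by Zbtb16 and Chka, both at 0.983. Arntl was most like Vgll4, at 0.967, Npas2 most like Nrp2, at 0.964, and Nr1d1 most like Atf5, at 0.874. Clock and Nr1d2 spanned 0.46 and 0.97 over the 14 groups and were left out of this measure.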

How the data were processed

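RNA of each sample was sequenced from SMART-Seq libraries, per the labels' protocols. The deposited table holds expected counts per gene symbol in 42 libraries, and 69.5% of its values lie within 0.01 of a whole number. The submitters' processing notes name fastp, HISAT2, Salmon and GRCm38, without versions or roles. The annotation, the strand setting and the rule that kept these 11160 genes are not given there. Estimated counts divide reads among similar transcripts, and values of overlapping or closely related genes depend on that division.

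Expected counts were rounded to whole numbers and tested with edgeR 4.0.16 (R 4.3.3) by its quasi-likelihood F test, on a single model of 14 group means with TMM scaling. P-values were adjusted by Benjamini-Hochberg over all genes within a comparison and called at 0.05. The filter on low counts removed 0 genes, so the fit without it repeats the main fit. An SE is the log2 fold change divided by the root of F, and 95% intervals are the value ± a normal multiple of it. Results were recomputed with DESeq2 1.42.0, with median-ratio scaling, without the filter, with genes whose mean reaches 5 CPM, with the replicate number as a block, on the compared libraries alone, on summed counts for KO against WT, and without each library in turn.

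Groups come from the titles, and replicates of a group differed by more than counting noise. The genes named are the 9 clock genes, Ms4a4a, up to 4 members with the lowest p of each other list in the comparison described (Tef at 24 h was added after its values were seen), and the genes most like each member. A named member of these lists is not reported here. The members and lists were chosen with earlier results of these data known. Libraries with the same number deviated together (every correlation over 0.1) in the averaged comparison of Dex with vehicle at 8 h, for Dex within each genotype at 8 h, in KO at 2 h and in WT at 24 h, and for vehicle at 8 h against 2 h. There the numbers were taken to pair the libraries. The reported values still come from the model without that pairing, and the block on the number is given as an alternative. In simulated counts with 200 genes changed, the averaged 8 h Dex test recovered 85.1% of genes changed by 0.5 on the log2 scale, and 6.57% of its calls were false. Exon lengths and overlaps were read from the GRCm38 annotation and promoters from RefSeq.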

Additional observations from a re-analysis of the deposited data

How the results depend on the processing

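The counts of clock genes called were recomputed under each alternative, and most stayed within 1.5 times of the reported count. With Dex at 2 h in WT cells 2 genes were called, and 1 with a mean of at least 5 CPM, because Per2 falls below that mean and was not tested there. With Dex at 2 h in KO cells 2 were called, and 1 when the compared libraries were fitted alone, while fits without a library gave 1 to 3, with 1 without KO vehicle replicate 2 or KO Dex replicate 1 or 2. For vehicle at 24 h against untreated cells 6 were called, and 3 when the compared libraries were fitted alone, and the cause was not tested. For vehicle at 8 h against untreated cells 3 were called, and fits without a library gave 1 to 3, with 1 without KO vehicle replicate 3 or WT untreated replicate 1 or 2.

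With the replicate number as a block, vehicle at 8 h against 2 h gave 6 called genes against 5, the added gene being Nr1d2, and no other call changed among the comparisons whose numbers pair the libraries. Elsewhere the block added Cry2 at 8 h of vehicle against untreated cells (adjusted p = 0.0466) and Clock at 24 h (adjusted p = 0.0431). It moved the count over all genes for KO against WT from 25 to 111 without Dex and from 6 to 37 with Dex, none of them a clock gene, DESeq2 gave 71 and 22, and counts summed per genotype and number gave 0 and 1. Over single clock genes, 1281 values under the other alternatives kept their call, 10 gained and 11 lost it, and no value called in either fit reversed its sign. The 1281 include the fit without the filter, which repeats the main fit and had to keep every call. Values not called in either fit were counted as kept, whatever their sign. Of the values without a library 2240 kept their call, 13 gained and 69 lost it. The calls lost most often without a library were those of Clock, with small changes, and of Nr1d1 and Arntl near the threshold. Mean levels under 3 CPM rest on few counts. Averaged over both genotypes, such levels were those of Npas2 after 8 h of Dex, and of Nr1d1 after 8 h of Dex and in untreated cells. Per2 had them in untreated cells, after 8 and 24 h of vehicle and after 24 h of Dex.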
